A study of Homo sapiens with 9 samples.

Results

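The HOX genes are the 4 chromosomal clusters of homeobox genes that mark position along the body axis of the embryo. The 38 listed HOX genes were found by their symbols among the 60708 genes of the count table, 10 in the HOXA cluster, 10 in HOXB, 9 in HOXC and 9 in HOXD. They were measured in 9 RNA-sequencing libraries, which the study describes as MDA-MB-231, an established line of basal, triple-negative human breast cancer. Of these, 3 libraries were labelled WT (parental cells), 3 were labelled CS16 and 3 CS19, and all came from untreated cells. CS16 and CS19 are the *SNAI1*-KO clones, in which *SNAI1*, a zinc-finger repressor of epithelial genes, was targeted with Cas9, a repair plasmid and 3 guide plasmids against its exon 1, its exon 2 and the border of that exon with intron 2. Each clone was grown from a single-cell colony after puromycin selection, so a clone is 1 line and its 3 libraries are not independent knockouts. The labels do not say whether libraries of a group came from separate cultures, and the p-values therefore measure the spread between these libraries, which may be technical. The WT cells are the uncloned parental population.

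HOX proteins bind DNA through the homeodomain, mostly together with the homeodomain cofactors of the PBX, MEIS and PKNOX families. Within a cluster the genes lie in the order in which they act along the body, with the anterior genes (low paralog numbers) at the 3′ end and the posterior genes (high numbers) at the 5′ end, and equal numbers in different clusters mark paralogs. Polycomb complexes hold the clusters silent where they are not needed and trithorax-type methyltransferases keep them active. In the breast, HOX genes act in mammary gland development, and individual members such as *HOXA5*, *HOXB7*, *HOXB9* and *HOXB13* have been studied in breast cancer.

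On GRCh38 the listed HOXA genes span chr7:27100354-27200091 (99.7 kb, minus strand), the HOXB genes chr17:48528526-48728750 (200.2 kb, minus strand), the HOXC genes chr12:53938831-54056030 (117.2 kb, plus strand) and the HOXD genes chr2:176092721-176190907 (98.2 kb, plus strand). Promoter sequence from RefSeq (GRCh38.p14, 250 bases before to 50 bases after a start) was at hand for 20 of the 38 members, in 26 distinct promoters. The 150 bases before the start are shown for *HOXD13*, *HOXA11* and *HOXD11*, the members with the largest fitted and called differences among those with a single promoter in the table, and for *HOXD4*, the member with the smallest difference, which was chosen after its values were seen. Capitals mark CpG dinucleotides. The *HOXD13* stretch is chr2:176092571-176092720 on the plus strand, with 18 CpG and no annotated gene over it. The *HOXA11* stretch is chr7:27185233-27185382 on the minus strand, with 4 CpG, inside an exon of *HOXA11-AS*. The *HOXD11* stretch is chr2:176107130-176107279 on the plus strand, with 10 CpG, in an intron of the longest *HOXD11* gene model. The *HOXD4* stretch is chr2:176151400-176151549 on the plus strand, with 3 CpG, in an intron of *HOXD3*.
HOXD13: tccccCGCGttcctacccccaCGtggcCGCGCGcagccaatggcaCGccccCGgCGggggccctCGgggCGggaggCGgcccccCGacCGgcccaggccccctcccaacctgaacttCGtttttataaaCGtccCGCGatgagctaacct
HOXA11: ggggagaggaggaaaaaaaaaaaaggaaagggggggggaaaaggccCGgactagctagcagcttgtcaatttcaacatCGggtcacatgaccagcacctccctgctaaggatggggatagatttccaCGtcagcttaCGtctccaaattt
HOXD11: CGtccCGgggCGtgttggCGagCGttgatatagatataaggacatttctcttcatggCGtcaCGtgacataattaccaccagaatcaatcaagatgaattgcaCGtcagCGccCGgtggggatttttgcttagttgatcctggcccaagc
HOXD4: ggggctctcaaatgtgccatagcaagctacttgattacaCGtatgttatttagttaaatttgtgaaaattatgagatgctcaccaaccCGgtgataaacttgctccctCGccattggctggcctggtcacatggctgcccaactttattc

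Member promoters held a median of 22.5 CpG in 300 bases, from 0 to 44, against a median of 14 over all 34943 distinct promoters of the table. The observed over expected CpG ratio had a median of 0.855 in the member promoters and 0.577 in all. The E-box CAGGTG, a sequence known to be bound by SNAI1, was searched on both strands (CACCTG on the other). It occurred in 1 of the 26 member promoters (3.85%), that of *HOXA7*, and in 7200 of all promoters (20.6%). None of the 4 stretches shown held it. These are matches of letters in short windows and not binding sites, and binding was not measured. The 26 promoters were mostly of HOXA and HOXD and included several starts of *HOXA3*. From HOXB there was that of *HOXB1* alone, and from HOXC 1 shared by *HOXC4* and *HOXC5*. For 8 members a promoter lay at the start of the gene model used for counting. The shares therefore do not describe the 4 clusters evenly.

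The clusters also hold miRNA genes that lie between HOX genes and whose products are known to target HOX transcripts. Mature sequences from RefSeq are shown with the seed (bases 2 to 8) in capitals. The sequences of miR-196a-5p, from *MIR196A2* in HOXC and *MIR196A1* in HOXB, and of miR-196b-5p, from the HOXA cluster, share 1 seed. That of miR-10b-3p, from the HOXD cluster, has another. For miR-10b only this 3p sequence was at hand, so known HOX targets of miR-10b are not to be read from the seed shown.
miR-10b-3p: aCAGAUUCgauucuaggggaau
miR-196a-5p: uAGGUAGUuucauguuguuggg
miR-196b-5p: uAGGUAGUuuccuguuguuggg

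The libraries held between 19527195 and 28627777 counted read pairs. *SNAI1* itself was not lower in the libraries labelled *SNAI1*-KO. Its counts were 16, 38 and 21 in WT, 26, 40 and 49 in CS16 and 57, 94 and 94 in CS19, groups that overlap (log2 fold change 0.89, SE 0.42, adjusted p = 0.0838 by the Benjamini-Hochberg method, edgeR's quasi-likelihood test). These counts cover the whole gene, including exon bases outside the targeted part, and so do not show whether that part is missing. Groups are named by their labels throughout, and every direction given below is between labels. Of the WT libraries, WT-2 was the odd one. Its chi-square over gene counts, per degree of freedom, was 188 to WT-1 and 230.2 to WT-3, whereas WT-1 and WT-3 differed by 14.6 and the closest pair of all by 4.78. *CDKN2A*, *CDKN2B* and *MTAP* of 9p21 had 0 counts in every WT library and summed to between 62.4 and 89.0 TPM (counts per exon length, scaled to the same total in each library) in the libraries labelled *SNAI1*-KO. Of the basal markers *VIM*, *CD44*, *EGFR*, *CAV1*, *AXL*, *FOSL1* and *MSN*, 6 of 7 were called lower, with sums of 3107 to 4502 TPM in WT and 253 to 354 TPM in the libraries labelled *SNAI1*-KO, where *CD44* had 2 counts in CS19-2 and 0 in the other 5. Of the luminal markers tested, *FOXA1* was called higher and 4 of 5 lower (sums of 823 to 1165 TPM against 48.8 to 98.9 TPM). Of the nephric markers, 3 of 7 were called higher and 2 lower (17.8 to 50.3 against 22.3 to 33.9 TPM). Of the 8 nephric markers listed, 2 had 0 counts in all WT libraries. Over all 19631 genes tested, 12.6% were called higher and 14.3% lower, beside which these marker counts are to be read. Both neuronal markers tested, *NEFL* and *NEFM*, were called higher (0 to 0.05 against 73.6 to 142.7 TPM for the list). Both passed the filter on low counts through the libraries labelled *SNAI1*-KO, so their calls are a description only. *INA* and *STMN2* were not tested. Their mean CPM (counts scaled to library size) was 0.20 and 0.07 in CS16 and 0.30 and 0 in CS19. These differences lay between the same libraries as the HOX differences, and their part in the HOX results was not tested. Whether the libraries of all 3 groups came from the same cell line was not tested either.

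HOX transcripts were few in the WT libraries and abundant in both clones. All 38 members together took 849 counts in the 3 WT libraries, 267 to 299 per library, against 10716 to 13083 per CS16 library and 14922 to 21379 per CS19 library. On the TPM scale the members summed to 19.3, 23.5 and 15.9 in WT, to 727, 531 and 624 in CS16 and to 806, 906 and 726 in CS19. The lowest CS16 library thus lay well above the highest WT library, and the clones overlapped. In bulk RNA, fewer expressing cells and less RNA per cell cannot be told apart.

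**Figure D1:**
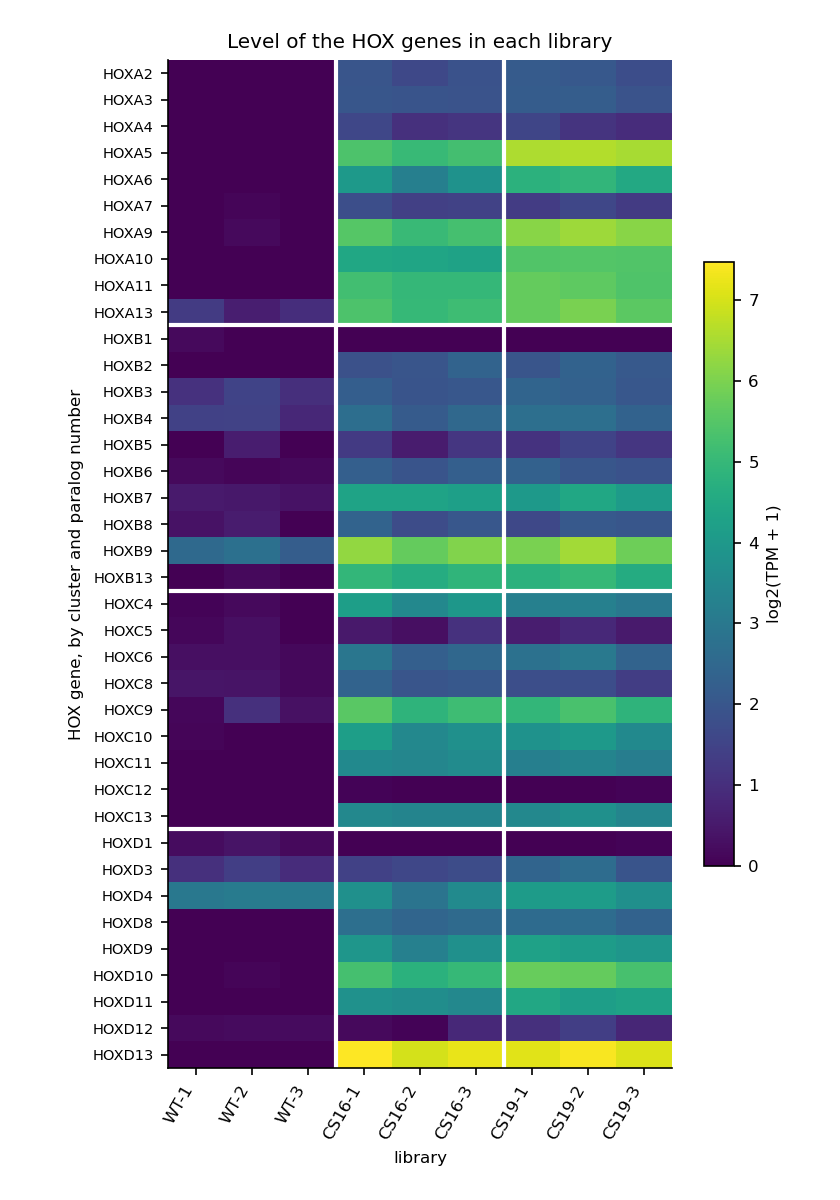
Level of each of the 38 HOX genes (rows, by cluster and position) in each of the 9 libraries (columns), as log2(TPM + 1). The WT columns are dark except for a few genes such as *HOXD4* and *HOXB9*, whereas the CS16 and CS19 columns are filled in all 4 clusters apart from *HOXB1*, *HOXC12* and *HOXD1*, with *HOXD13* at 127 to 176 TPM the highest.

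A member was taken as expressed in a group at a mean of at least 1 TPM. By that measure 6 of 38 members were expressed in WT, 33 in CS16 and 34 in CS19. The 6 in WT were *HOXD4* (7.29 ± 0.35 TPM, SD, n = 3), *HOXB9* (4.74 ± 1.09), *HOXB4* (1.42 ± 0.55), *HOXB3* (1.32 ± 0.46), *HOXD3* (1.19 ± 0.36) and *HOXA13* (1.00 ± 0.47). The last 4 of these do not differ from each other beyond their SDs. In WT, 15 members had 0 counts in all 3 libraries, 7 of HOXA, 1 of HOXB, 3 of HOXC and 4 of HOXD, and 26 members had at most 3 counts in each library, which was taken as the counting floor. Counts came without molecular identifiers, so floors and intervals cover counting error only.

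In the comparison of the 6 libraries labelled *SNAI1*-KO with the 3 WT libraries, 34 of the 38 members had enough counts to be tested by edgeR's quasi-likelihood test. Of these, 30 were called higher at a log2 fold change of 2 or more and a Benjamini-Hochberg adjusted p below 0.05, and 0 were called lower, also at an unadjusted p and by DESeq2. Over all 19631 genes tested, 12.6% were called higher and 14.3% lower. By cluster, 10 of 10 HOXA, 7 of 9 HOXB, 7 of 7 HOXC and 6 of 8 HOXD members tested were called higher. By position, it was 3 of 5 anterior (paralogs 1 to 3), 12 of 14 central (4 to 8) and 15 of 15 posterior members (9 to 13). Only 6 members had at least 10 counts in each WT library (*HOXA13*, *HOXB3*, *HOXB4*, *HOXB9*, *HOXD3* and *HOXD4*). The other 28 tested members passed the filter on low counts through the libraries labelled *SNAI1*-KO, which selects for a difference. The p-values of these 28 and the counts and medians over the members tested are therefore a description only.

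The median log2 fold change of the 34 members was 5.57 with the 14 members at 0 in WT set to their lower bound, against -0.004 over all genes tested. Without WT-2, 29 members were called higher against both clones together, the one lost being *HOXD12*. All 6 libraries labelled *SNAI1*-KO lay above all 3 WT libraries for 33 of the 38 members and below them for 1, *HOXD1*. Of the 41910 genes with a count, 15.9% lay entirely higher and 18.5% entirely lower in this way.

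**Figure D2:**
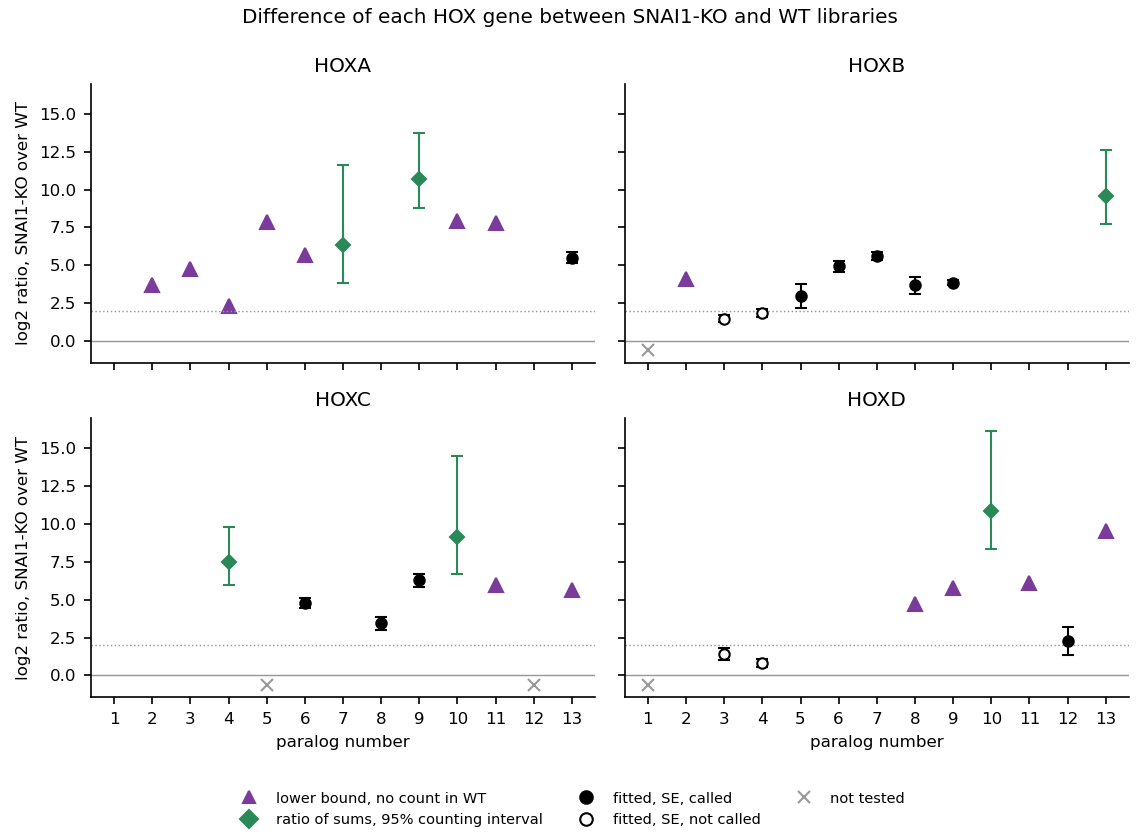
Difference of each member, *SNAI1*-KO over WT by label (vertical axis, log2 ratio) against its paralog number (horizontal axis), 1 panel per cluster. Circles are fitted log2 fold changes ± SE (filled where called), triangles are lower bounds of members with 0 counts in WT, diamonds are ratios of summed counts with a 95% counting interval, and crosses are members not tested, placed without a value. The open circles are *HOXB3*, *HOXB4*, *HOXD3* and *HOXD4*, between 0.81 and 1.85.

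The posterior genes carried most HOX transcripts in the clones. *HOXD13*, which patterns digits and the genital tubercle, had 0 counts in all 3 WT libraries, 176, 127 and 149 TPM in CS16 and 140, 168 and 135 TPM in CS19. Across both clones it was at least 741-fold higher, computed against a floor of 3 counts per WT library. Among the genes with at least 1 TPM in a group, *HOXD13* ranked at percentile 95.5 in CS16 and 96.2 in CS19. Its paralog *HOXA13*, which acts in the same tissues, had 1.48, 0.54 and 0.98 TPM in WT, 40.8, 30.8 and 34.3 TPM in CS16 and 51.6, 61.3 and 46.6 TPM in CS19, a log2 fold change of 5.50 (SE 0.36, adjusted p = 1.33e-07, edgeR). It was the one HOXA member with 10 or more counts in each WT library. *HOXB13*, best known from prostate and hindgut, had 2 counts in WT-2 and 0 in the other WT libraries, 29.8, 23.8 and 28.9 TPM in CS16 and 26.9, 31.2 and 23.2 TPM in CS19. The ratio of its summed counts was 771 with an exact 95% counting interval from 213 to 6369. *HOXC13*, a hair follicle gene, was at 0 in WT, 10.3, 9.27 and 9.35 TPM in CS16 and 10.2, 12.6 and 9.53 TPM in CS19, at least 49.7-fold higher. All 4 genes of paralog group 13 were thus called, and they summed to 1.04 ± 0.41 TPM in WT, 223 ± 33.1 TPM in CS16 and 239 ± 30.5 TPM in CS19 (SD, n = 3 each).

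Paralog groups 10 to 12 were almost without counts in WT. *HOXD12*, a limb gene, was the weakest of those tested, with 0.13, 0.15 and 0.16 TPM in WT, 0.13, 0.051 and 0.82 TPM in CS16 and 1.04, 1.61 and 0.76 TPM in CS19. CS16-1 and CS16-2 overlapped with WT while CS16-3 did not, and its call (log2 fold change 2.29, SE 0.91, adjusted p = 0.0444, edgeR) was lost when any library other than CS16-1 or CS16-2 was left out. *HOXA11* and *HOXD11*, which pattern the forearm and the kidney, had 0 counts in WT. *HOXA11* stood at 35.9, 30.7 and 30.8 TPM in CS16 and 51.0, 48.4 and 41.9 TPM in CS19, at least 220-fold higher. *HOXD11* stood at 12.8, 11.7 and 10.3 TPM in CS16 and 21.1, 17.0 and 18.9 TPM in CS19, at least 67.5-fold higher. In both, every CS19 library lay above every CS16 library. *HOXC11*, the remaining paralog, had 0 counts in WT, 10.7, 9.76 and 11.2 TPM in CS16 and 8.29, 9.29 and 7.89 TPM in CS19, at least 64.1-fold higher. *HOXC12* had 1 count in CS16-1, 2 in CS19-3 and 0 elsewhere, and was not tested. Of all posterior members it alone stayed at the floor in both clones.

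*HOXA10*, a regulator of the uterus, had 0 counts in WT, 20.9, 20.2 and 18.6 TPM in CS16 and 42.8, 43.8 and 42.5 TPM in CS19, at least 244-fold higher. *HOXD10*, known as a target of miR-10b in breast cancer cells, had 1 count in WT-2 and 0 in the other WT libraries, against 37.8, 26.0 and 30.9 TPM in CS16 and 52.2, 51.2 and 37.97 TPM in CS19. The ratio of sums was 1829.8 with a wide interval from 328 to 72288, since it rests on 1 WT count. *HOXC10*, a hindlimb gene, likewise had 1 count in WT, in WT-1, and 17.4, 10.3 and 12.6 TPM in CS16 and 12.97, 15.6 and 10.6 TPM in CS19, a ratio of 575 (103 to 22737). Neither gene overlapped between WT and the clones.

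In paralog group 9, *HOXB9* differed from the rest by being expressed in WT. *HOXB9*, which together with its paralogs acts in mammary gland growth, had 4.82, 5.78 and 3.61 TPM in WT, 75.1, 50.7 and 65.4 TPM in CS16 and 62.0, 84.6 and 55.3 TPM in CS19. The log2 fold change was 3.86 (SE 0.18, adjusted p = 9.5e-09, edgeR), a 14.5-fold difference of the mean CPM (counts scaled to library size). Among genes with at least 1 TPM it moved from percentile 39.3 in WT to 88.7 in the libraries labelled *SNAI1*-KO. It shares no exon base with another annotated gene, and its WT level rests on 66 to 76 counts per library. *HOXA9*, a gene of blood progenitors, had 2 counts in WT-2 and 0 in the other WT libraries, with 44.4, 32.5 and 37.5 TPM in CS16 and 69.4, 82.7 and 69.9 TPM in CS19. The ratio of sums was 1631 (451 to 13469). *HOXC9*, which shapes thoracic motor neurons, had 0.10, 1.06 and 0.25 TPM in WT, 45.8, 27.9 and 34.6 TPM in CS16 and 29.5, 38.9 and 28.1 TPM in CS19, a log2 fold change of 6.28 (SE 0.44, adjusted p = 2.19e-07, edgeR). Of its 13 WT counts, 9 were in WT-2. *HOXD9* had 0 counts in WT, 14.1, 8.55 and 12.4 TPM in CS16 and 18.4, 16.6 and 14.1 TPM in CS19, at least 54.0-fold higher.

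**Figure D3:**
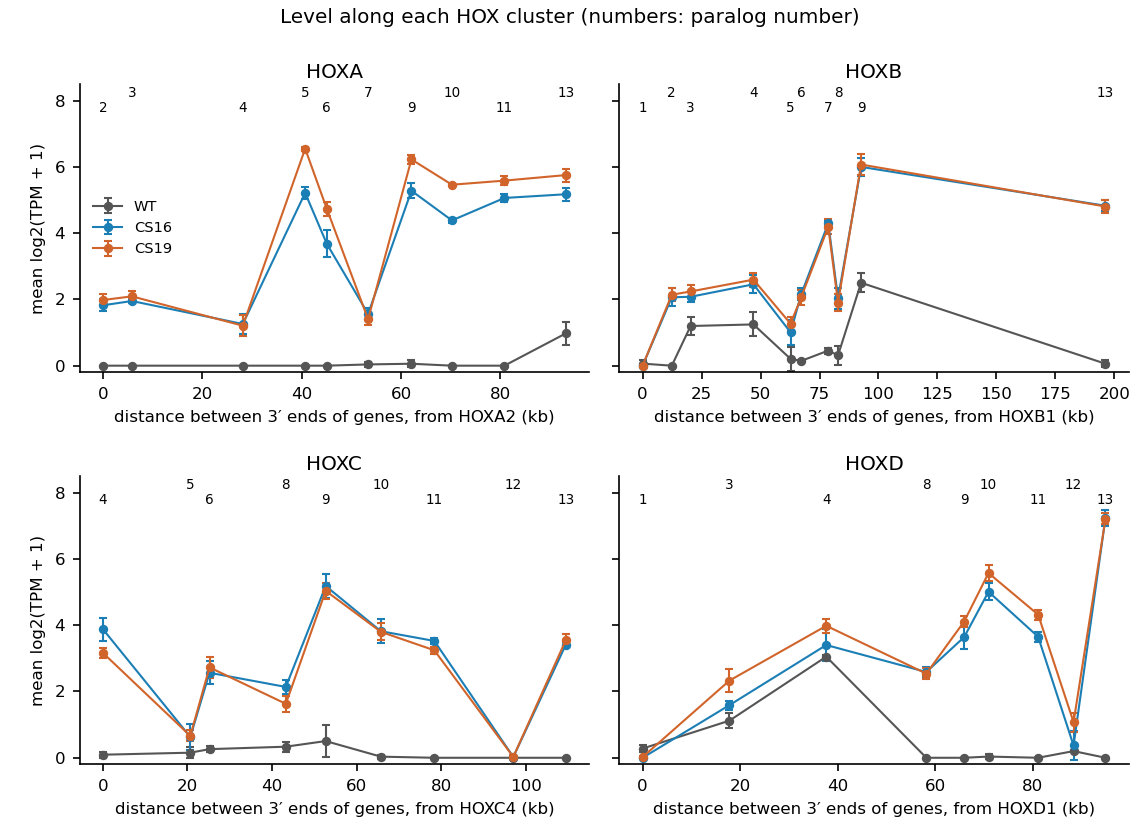
Mean level in each group (vertical axis, log2(TPM + 1), error bars SD, n = 3) against distance along each cluster (horizontal axis, kb between the 3′ ends of genes, counted from the most anterior listed gene). WT stays near 0 apart from *HOXB9*, *HOXA13* and the HOXB and HOXD genes of groups 3 and 4. In CS16 and CS19 the last gene at the 5′ end lies above the first at the 3′ end in both clones for HOXA, HOXB and HOXD, but in CS19 alone for HOXC, with *HOXD13* at 149 ± 19.3 TPM over both clones.

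The central genes were led by *HOXA5*. *HOXA5*, which acts in lung development, had 0 counts in WT, 40.6, 31.6 and 36.6 TPM in CS16 and 93.5, 95.9 and 88.6 TPM in CS19, at least 230-fold higher. In CS19 it ranked next to *HOXD13*. Its paralogs were far lower. *HOXB5* had 5 counts in WT-2 and 0 in the other WT libraries, 1.40, 0.49 and 1.27 TPM in CS16 and 1.14, 1.85 and 1.29 TPM in CS19, a log2 fold change of 2.99 (SE 0.78, adjusted p = 0.00571, edgeR). *HOXC5* had 0.11, 0.24 and 0 TPM in WT and 0.24 to 1.08 TPM in the clones, and did not pass the filter. The ratio of its summed counts was 5.91 (1.90 to 29.8), and 67.3% of its exon bases lie in another annotated gene.

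*HOXA6* had 0 counts in WT, 15.2, 8.30 and 13.01 TPM in CS16 and 26.7, 29.2 and 21.8 TPM in CS19, at least 50.2-fold higher, with no overlap between the clones. *HOXB6* had 1 or 2 counts in each WT library, 3.79, 2.85 and 3.80 TPM in CS16 and 3.95, 3.02 and 2.66 TPM in CS19, a log2 fold change of 4.93 (SE 0.35, adjusted p = 2.21e-07, edgeR). *HOXC6*, which acts in brachial motor neurons, had 0.25, 0.23 and 0.12 TPM in WT, 6.70, 3.76 and 4.65 TPM in CS16 and 5.91, 7.03 and 4.24 TPM in CS19, a log2 fold change of 4.80 (SE 0.31, adjusted p = 1.18e-07, edgeR). The paralogs of group 6 thus differed in level in the clones while all 3 were near 0 in WT.

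*HOXB7*, which has been tied to breast cancer progression, was the highest central gene of the HOXB cluster in the clones. It had 0.45, 0.39 and 0.28 TPM in WT, 19.3, 19.0 and 17.6 TPM in CS16 and 15.4, 20.8 and 16.1 TPM in CS19, a log2 fold change of 5.63 (SE 0.28, adjusted p = 1.17e-08, edgeR). *HOXA7* had 1 count in WT-2 and 0 in the other WT libraries, 2.44, 1.67 and 1.80 TPM in CS16 and 1.52, 2.02 and 1.44 TPM in CS19, a ratio of 80.2 (14.2 to 3184), and 62.5% of its exon bases lie in another annotated gene. The 3 genes of group 8 were all low in the clones. *HOXB8* had 0.28, 0.49 and 0 TPM in WT, 4.17, 2.33 and 3.04 TPM in CS16 and 2.05, 3.27 and 3.03 TPM in CS19 (log2 fold change 3.68, SE 0.55, adjusted p = 0.000115, edgeR). *HOXC8* had 0.35, 0.33 and 0.12 TPM in WT, 4.22, 2.91 and 3.18 TPM in CS16 and 2.45, 2.37 and 1.54 TPM in CS19 (3.45, SE 0.41, adjusted p = 1.91e-05, edgeR). *HOXD8* had 0 counts in WT, 5.66, 4.45 and 4.99 TPM in CS16 and 5.15, 5.28 and 4.09 TPM in CS19, at least 26.7-fold higher. In all 3 the lowest clone library lay above the highest WT library.

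Group 4 made up 45.6% of the summed HOX TPM of the WT libraries, mainly through *HOXD4*. *HOXD4*, a hindbrain gene, had 6.92, 7.61 and 7.35 TPM in WT, 12.5, 6.30 and 11.0 TPM in CS16 and 16.1, 16.4 and 12.3 TPM in CS19. CS16-2 lay below all 3 WT libraries, so the groups overlapped. The log2 fold change was 0.81 (SE 0.28, adjusted p = 0.025, edgeR), the smallest of the 34 tested, and the adjusted p was 0.0503 without CS19-1 and 0.0866 without WT-1. *HOXB4*, used to expand blood stem cells, had 1.71, 1.77 and 0.78 TPM in WT, 5.44, 3.44 and 4.76 TPM in CS16 and 5.57, 5.57 and 4.12 TPM in CS19, a log2 fold change of 1.85 (SE 0.27, adjusted p = 8.7e-05, edgeR), under the cut-off of 2. Their paralogs were near 0 in WT. *HOXC4* had 3 counts over the 3 WT libraries, 17.2, 10.3 and 14.5 TPM in CS16 and 8.51, 8.53 and 6.96 TPM in CS19, a ratio of 184 (62.7 to 892). *HOXA4* had 0 counts in WT, 2.00, 1.05 and 1.22 TPM in CS16 and 1.96, 1.16 and 0.93 TPM in CS19, at least 4.87-fold higher.

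The anterior genes stayed at or below 5.18 TPM in every library. *HOXB3* had 1.08, 1.85 and 1.03 TPM in WT, 3.73, 2.87 and 3.12 TPM in CS16 and 4.26, 3.95 and 3.05 TPM in CS19, a log2 fold change of 1.48 (SE 0.22, adjusted p = 0.000129, edgeR). *HOXD3* had 1.06, 1.59 and 0.92 TPM in WT, 1.73, 2.00 and 2.31 TPM in CS16 and 4.35, 5.18 and 2.83 TPM in CS19, a log2 fold change of 1.44 (SE 0.39, adjusted p = 0.00701, edgeR). Neither gene overlapped between WT and the clones, but both stayed under the fold cut-off. *HOXA3*, needed for thymus and parathyroid, had 0 counts in WT, 3.01, 2.81 and 2.79 TPM in CS16 and 3.47, 3.59 and 2.78 TPM in CS19, at least 27.4-fold higher. *HOXA2*, the selector gene of the hyoid arch, had 0 counts in WT, 2.89, 2.06 and 2.71 TPM in CS16 and 3.39, 3.13 and 2.40 TPM in CS19, at least 13.2-fold higher. *HOXB2* had 0 counts in WT, 2.61, 2.91 and 4.18 TPM in CS16 and 2.93, 4.13 and 3.25 TPM in CS19, at least 17.0-fold higher.

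The most anterior pair stayed near 0 in every library and was not tested. *HOXB1*, a hindbrain gene, had 2 counts in WT-1 and 0 in all others. *HOXD1* had 2, 3 and 2 counts in WT, 0 in all CS16 libraries and 0, 0 and 1 in CS19, and was thereby the one member lower in all 6 libraries labelled *SNAI1*-KO. With no filter on low counts its log2 fold change was -3.28 (adjusted p = 0.0218, edgeR), which depends on the prior count, and 60.1% of its exon bases lie in another annotated gene.

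The 4 clusters did not contribute equally. The HOXA members summed to 1.07 ± 0.37 TPM in WT, 183 ± 23.5 TPM in CS16 and 345 ± 26.1 TPM in CS19 (SD, n = 3 each). The HOXB members summed to 8.48 ± 2.60, 129 ± 18.7 and 131.5 ± 24.0 TPM, the HOXC members to 1.15 ± 0.77, 92.7 ± 19.2 and 81.0 ± 13.02 TPM, and the HOXD members to 8.88 ± 0.77, 223 ± 37.4 and 255 ± 27.7 TPM in the same order. The clones differed beyond these SDs for HOXA and not for the other 3 clusters. In WT, HOXD (46.2%) and HOXB (42.7%) made up most of the HOX TPM. In CS16 the order was HOXD (35.5%), HOXA (29.3%), HOXB (20.5%) and HOXC (14.7%), and in CS19 it was HOXA (42.6%), HOXD (31.4%), HOXB (16.1%) and HOXC (9.93%).

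The makeup by position also differed between WT and the clones. Posterior members took 33.1% of the HOX TPM in WT, 78.5% in CS16 and 74.7% in CS19. Central members took 52.9%, 19.2% and 23.1%, and anterior members 14.0%, 2.24% and 2.15%. The sums of all classes were nevertheless higher in the clones, the anterior sum being 2.77 ± 0.87 TPM in WT, 13.9 ± 1.22 TPM in CS16 and 17.6 ± 2.89 TPM in CS19 (SD, n = 3 each).

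**Figure D4:**
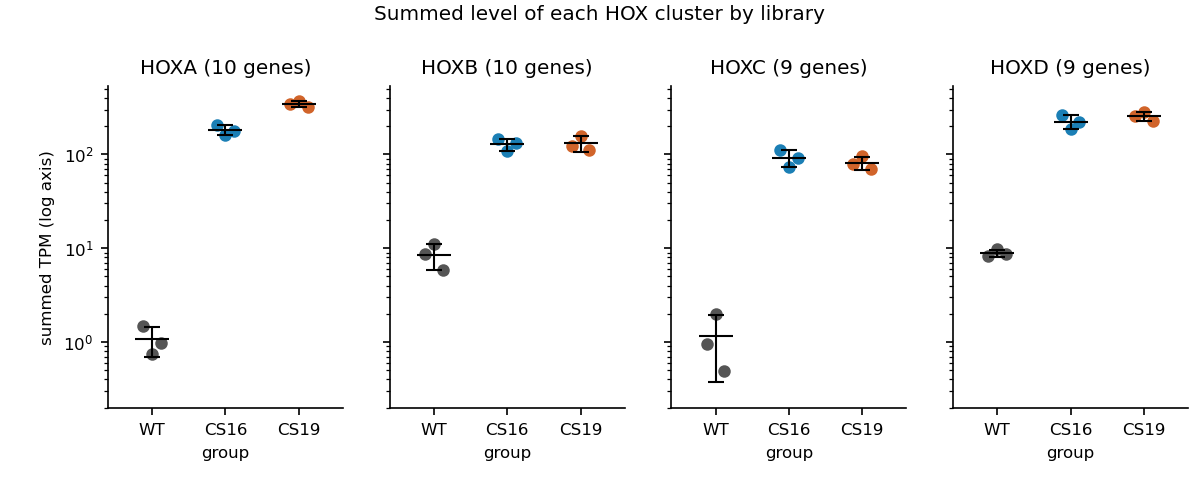
TPM summed over the listed members of each cluster in each library (points, log axis), with the mean and SD of 3 libraries per group. In every cluster the CS16 and CS19 points lie above the WT points, and CS19 lies above CS16 in the HOXA cluster only (345 ± 26.1 against 183 ± 23.5 TPM).

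Each clone was also compared with WT in a fit of its own, and both comparisons use the same 3 WT libraries. In CS16 against WT, 28 of the 32 members tested were called higher and 0 lower, also at an unadjusted p and by DESeq2 (of all 18611 genes tested, 11.8% higher and 15.3% lower). In CS19 against WT, 30 of the 34 members tested were called higher and 0 lower, again also at an unadjusted p and by DESeq2 (of all 18935 genes tested, 12.0% higher and 14.4% lower). Without WT-2 these counts were 29 and 32. The 4 members not called were the same in both, *HOXB3* (log2 fold change 1.38 in CS16 and 1.63 in CS19), *HOXB4* (1.77 and 1.99), *HOXD3* (0.87 and 1.90) and *HOXD4* (0.48 and 1.13). *HOXD4* had an adjusted p of 0.179 in CS16 and 0.00436 in CS19 (edgeR). *HOXB5* and *HOXD12* were not tested in CS16 and were called in CS19 at 3.25 and 2.93.

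Between the clones, 0 of the 34 members tested passed the fold cut-off of 2 on the log2 scale (edgeR), also at an unadjusted p and by DESeq2, against 0.496% of all 17538 genes higher and 0.633% lower in CS19. At an adjusted p below 0.05 alone, 11 members were higher in CS19 and 2 lower (12 and 3 at an unadjusted p, 12 and 1 by DESeq2), against 12.7% and 14.7% of all genes tested. The share of HOX members lower in CS19 thus lay below the background and the share higher above it. Of the members higher in CS19, 6 were of the HOXA cluster and 5 of HOXD, both lower members were of HOXC, and no HOXB member was among them.

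The HOXA members higher in CS19 were *HOXA5* (log2 fold change 1.40, SE 0.08), *HOXA10* (1.16, SE 0.10), *HOXA6* (1.14, SE 0.14), *HOXA9* (1.01, SE 0.07), *HOXA13* (0.63, SE 0.07) and *HOXA11* (0.58, SE 0.08). The anterior members *HOXA2* and *HOXA3* were at 0.25 and 0.22, and *HOXA4* and *HOXA7* at -0.03 and -0.20, with adjusted p between 0.316 and 0.962 (edgeR). The HOXD members higher in CS19 were *HOXD3* (1.02, SE 0.21), *HOXD11* (0.77, SE 0.14), *HOXD4* (0.64, SE 0.18), *HOXD10* (0.62, SE 0.09) and *HOXD9* (0.54, SE 0.13). *HOXD13*, between *HOXD12* and the 5′ end of the cluster, had a log2 fold change of 0.02 (SE 0.07, adjusted p = 0.892, edgeR). *HOXD12* had the largest log2 fold change of the members tested, 1.66 (SE 0.59, adjusted p = 0.0539, edgeR), and so did not pass. It rests on low levels, with a mean of 0.27 CPM in CS16 and 0.95 CPM in CS19. *HOXC4* (-0.75, SE 0.12) and *HOXC8* (-0.66, SE 0.22, adjusted p = 0.0354, edgeR) were lower in CS19. In a fit that shared 1 estimate of the spread over all 3 groups, WT-2 included, all 13 kept their direction, and 3 of them (*HOXA5*, *HOXA6* and *HOXA10*) kept an adjusted p below 0.05 (edgeR). Each clone is 1 line, so a difference between CS16 and CS19 is a difference between these lines.

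**Figure D5:**
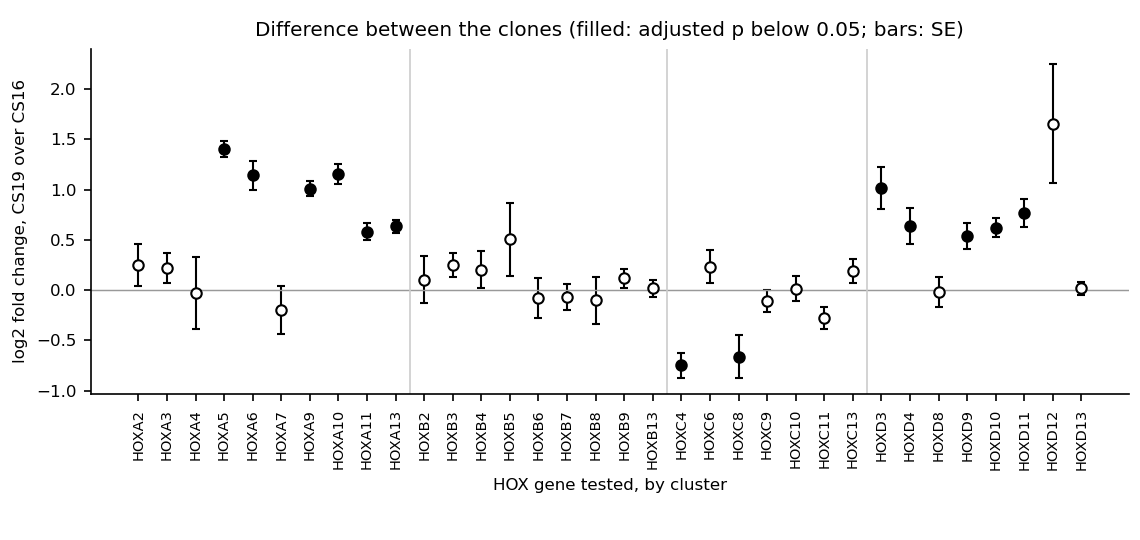
Log2 fold change of each member tested in CS19 over CS16 (vertical axis, bars ± SE, filled at an adjusted p below 0.05), with the members grouped by cluster on the horizontal axis. The filled points above 0 are HOXA and HOXD members, up to *HOXA5* at 1.40, and those below 0 are *HOXC4* at -0.75 and *HOXC8* at -0.66. The highest point, *HOXD12* at 1.66, is open.

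The counting did not use strand although the libraries were stranded, and read pairs that fall on more than 1 gene were left uncounted, so members that share exon bases with neighbours are less certain. Of the 38 members, 24 share exon bases with another annotated gene, with a median of 8.48% over all members. Of the 21 members with under 10% shared, 19 were tested and 17 were called higher in the libraries labelled *SNAI1*-KO, a selection made after the values were seen.

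Noncoding and other transcripts inside the clusters were mostly without counts in WT. Of 28 listed, 15 were tested against WT. Of these, 13 were called higher and 0 lower (12.6% and 14.3% of all genes tested), also at an unadjusted p and by DESeq2. The median log2 fold change was 3.91, against -0.004 over all genes tested. Of the 15, 14 lacked 10 counts in at least 1 WT library, 8 of them with 0 counts in all 3, and passed the filter through the libraries labelled *SNAI1*-KO, so these counts, the median and the p-values are a description only. *HOTAIR*, the noncoding RNA of the HOXC cluster known to bind Polycomb proteins, had 0 counts in WT, 97, 86 and 134 in CS16 and 122, 120 and 148 in CS19, at least 31.5-fold higher. *HOTAIRM1*, at the anterior end of the HOXA cluster, had 0 counts in WT, 172, 171 and 153 in CS16 and 142, 107 and 163 in CS19, at least 41.3-fold higher. The other called transcripts with 0 counts in WT were *HOXA-AS3*, *HOXA11-AS*, *HOXD-AS2*, *HOXA10-AS*, *HOXC13-AS* and *HOXC-AS3*, at least 71.6-, 37.1-, 17.7-, 15.0-, 7.15- and 3.24-fold higher. The called transcripts with counts in WT were *HOXA-AS2* (log2 fold change 5.73), *HOXB-AS3* (5.15), *HOXB-AS1* (3.23), *HOXC-AS2* (2.43) and *HOXC-AS1*, whose ratio of sums was 52.4 (9.24 to 2086). Several of these transcripts run antisense to HOX genes. Where exon bases are shared, the pairs were left uncounted, and no listed HOX gene shares an exon base with *HOTAIR* or *HOTAIRM1*.

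The transcripts not called were *HOTTIP* and *HAGLR*. *HOTTIP*, next to *HOXA13*, had 8, 11 and 7 counts in WT, 20, 17 and 28 in CS16 and 47, 29 and 40 in CS19 (log2 fold change 1.46, SE 0.38, adjusted p = 0.00588, edgeR). *HAGLR*, beside *HOXD1*, was lower, with 3.70, 6.10 and 3.37 TPM in WT, 2.40, 1.45 and 1.76 TPM in CS16 and 1.87, 1.26 and 1.08 TPM in CS19 (-1.36, SE 0.25, adjusted p = 0.000481, edgeR). *HAGLR* and *HOXD1* lie at the same end of the HOXD cluster, and both had higher counts in every WT library than in every clone library. *MIR10B*, the gene of the miR-10b-3p shown above, had 0 counts in WT, 5, 5 and 4 in CS16 and 26, 8 and 27 in CS19. *MIR196A2* had 0 counts in WT, 1, 6 and 1 in CS16 and 2, 1 and 1 in CS19, *MIR196A1* had 1 count in CS19-1 and 0 elsewhere, and *MIR196B* had 0 in all. Counts on hairpin genes in a total RNA library do not measure the mature miRNAs.

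Of 16 listed genes beside the 4 clusters, 15 were tested. Of these, 1 was called higher and 0 lower (12.6% and 14.3% of all genes tested), also at an unadjusted p with the same fold cut-off and by DESeq2. At an adjusted p below 0.05 alone, 5 were higher and 3 lower (edgeR). The share of all genes at that threshold is not given here, so these 2 counts are not set against a background. The median log2 fold change was 0.17, against -0.004 over all genes tested. The called gene was *SNX10*, a sorting nexin beside the HOXA cluster, with 31, 8 and 51 counts in WT, 427, 476 and 489 in CS16 and 529, 523 and 673 in CS19 (log2 fold change 3.82, SE 0.40, adjusted p = 6.25e-06, edgeR, and 3.40 without WT-2). The genes with the highest mean TPM over the 9 libraries among the others were *HNRNPA1* beside HOXC at 0.93, *ATP5MC3* and *MTX2* beside HOXD at 1.09 and 0.39, and *HIBADH* and *TAX1BP1* beside HOXA at -0.43 and -0.41, all under the cut-off of 2.

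Of the 9 HOX cofactor genes, 4 were called higher and 1 lower (12.6% and 14.3% of all genes tested). *MEIS1* had 20, 13 and 24 counts in WT, 977, 872 and 1273 in CS16 and 1283, 1468 and 1899 in CS19 (log2 fold change 5.76, SE 0.26, adjusted p = 5.86e-09, edgeR). *MEIS2* (2.37), *MEIS3* (3.07) and *PKNOX2* (6.09) were called higher as well. Of the 9 genes, 2 lacked 10 counts in at least 1 WT library, *PKNOX2* among them with a mean of 0.18 CPM in WT. These 2 passed the filter through the libraries labelled *SNAI1*-KO, so their p-values and the count called higher are a description only. *PBX4* was called lower at -2.14, with 130, 297 and 107 counts in WT and 32 to 61 in the clones, and without WT-2 its log2 fold change was -1.46 and it was not called. *PBX3* was at 1.08, *PKNOX1* at 0.43 and *PBX2* at -0.37, under the cut-off.

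Of the 28 listed chromatin regulators of HOX genes, 26 were tested, 1 was called higher and 2 lower (12.6% and 14.3% of all genes tested), with a median log2 fold change of -0.04. Without WT-2 the genes called were 3, each of them higher (edgeR), and in CS16 against WT 3 higher and 1 lower. *CDX2*, a caudal homeobox factor known to activate HOX genes in the posterior embryo, had 1, 0 and 2 counts in WT, 569, 584 and 695 in CS16 and 475, 547 and 651 in CS19, a ratio of 473 (162 to 2295). Its WT and clone libraries did not overlap. *CDX2* was the 1 gene called higher, and it passed the filter on low counts through the libraries labelled *SNAI1*-KO. Its call is therefore a description only. The Polycomb gene *PCGF2* (-2.46) and the H3K27 demethylase gene *KDM6B* (-2.27) were called lower, and both calls rest on WT-2, where *PCGF2* had 735 counts (98 in WT-1, 80 in WT-3) and *KDM6B* had 652 (84 in WT-1, 44 in WT-3). Without WT-2 they were at -0.55 and -0.09 and not called. The regulators with the highest mean TPM over the 9 libraries among the others were *WDR5* (0.07), *SUZ12* (-0.26), *RING1* (-0.39), *BMI1* (1.14) and *PHC2* (-1.65), all under the cut-off of 2. *EZH2*, *EED* and *KMT2A* are named because they encode the Polycomb methyltransferase, its partner and the trithorax-type methyltransferase of HOX genes, a choice made after their values were seen. *EZH2* and *EED* were at -0.07 and -0.01 with adjusted p of 0.697 and 0.975 (edgeR), and their WT and clone libraries overlapped. *KMT2A* was at -1.55 (SE 0.30, adjusted p = 0.000777, edgeR) with the highest count in WT-2, and at -0.88 without WT-2.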

How the data were processed

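RNA of 9 libraries (3 WT, 3 CS16 and 3 CS19) was sequenced after ribosomal depletion with a stranded paired-end kit. Per the labels and the submitters' processing notes, the authors used Trimmomatic 0.36 for trimming and STAR 2.7.2b for alignment to GRCh38, and counted pairs per gene of gencode 38 with featureCounts of Subread 2.0.0, without using strand. The deposited values were whole counts, not normalized and not pooled. Of 60708 genes, 60463 were matched to a symbol (99.6%) and 41910 had a count.

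Groups came from the labels. Tests were run with edgeR 4.0.16 under R 4.3.3 (filterByExpr, TMM, quasi-likelihood test on all genes that passed, Benjamini-Hochberg adjustment over all of them). SE was the size of the log2 fold change over the square root of F. TPM was computed from the counts and the exon lengths in the files, in Python 3.11.15. Library totals ran from 19527195 to 28627777 pairs. The detection floor was set at 3 counts, which is 0.105 to 0.154 CPM by library. The steps were tested on simulated data.

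The members and lists were chosen with earlier results of these data known. Members with a mean of at least 1 TPM in any group were given by library and the others by range, and of each list the called genes and up to 5 others. Alternatives were DESeq2 1.42.0, RLE normalization, other filters and fold cut-offs, a block by replicate number, 1 fit for all 3 groups, RPKM or other thresholds for expression, and leaving out each library. Reads, single exons and proteins were not analysed here, and a few genes of the lists are not reported here.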

Additional observations from a re-analysis of the deposited data

Results flagged for a closer look

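The following members differed between the clones by a test of the difference itself, CS19 against CS16 in edgeR's quasi-likelihood test at an adjusted p below 0.05. They were higher in CS19 by a log2 fold change of 1.40 for *HOXA5*, 1.14 for *HOXA6*, 1.01 for *HOXA9*, 1.16 for *HOXA10*, 0.58 for *HOXA11* and 0.63 for *HOXA13*. In the HOXD cluster the values were 1.02 for *HOXD3*, 0.64 for *HOXD4*, 0.54 for *HOXD9*, 0.62 for *HOXD10* and 0.77 for *HOXD11*. The 2 members lower in CS19 were *HOXC4* at -0.75 and *HOXC8* at -0.66. In 33 expressed members the 6 libraries labelled *SNAI1*-KO were examined for a library far from the others, and 0 had one. The libraries of both clones were pooled for this. Where the clones differ, a library apart from the rest of its own clone could be missed.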

How the results depend on the processing

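The members called higher against WT numbered 29 to 34 for both clones together, 28 to 31 for CS16 and 30 to 34 for CS19 over all alternatives, and no tested member changed direction. With libraries left out in turn the ranges were 29 to 30, 28 to 29 and 30 to 32. For single members, 10, 6 and 2 results lost an adjusted p below 0.05 under some alternative in these comparisons, and 16 did between the clones. Between the clones, 0 members were called, 5 at a log2 cut-off of 1, 13 with no fold cut-off and 0 to 1 with libraries left out, the 1 being *HOXD12* without CS16-3. *HOXD13* in CS19 over CS16 changed sign around 0 with libraries left out, from -0.024 (without CS19-2) to 0.058 (without CS19-1), and was at -0.012 without CS16-2 and -0.0095 without CS19-3. Called cofactor genes numbered 5, and 8 with no fold cut-off. Called genes beside the clusters numbered 1, then 2 at a log2 cut-off of 1 and 8 with no cut-off. Called chromatin regulators numbered 3, then 12 and 16 at these cut-offs, 5 with no filter and 1 with the replicate block. Counts at a log2 cut-off of 1, and those against WT with no fold cut-off, are given without the share of all genes. They are therefore not set against a background. *SNAI1* was at 1.01 with no filter (adjusted p = 0.0459, edgeR), and from 0.62 to 1.40 with libraries left out, where it passed an adjusted p of 0.05 without CS16-1 (1.03) and without WT-2 (1.40). Members expressed in WT numbered 2 with RPKM in place of TPM and 2 at a threshold of 2 TPM. The causes were not tested, apart from cut-offs, which change counts by construction.

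Replicate numbers did not pair the libraries, since deviations of same-numbered libraries correlated between -0.206 and 0.190. With the replicate block, 29 members were called against WT for both clones (*HOXD12* was lost), 28 for CS16, 31 for CS19 and 0 between the clones. Depth limits the members with 3 counts or fewer in WT, for which a level below the floor cannot be told from 0 and fold changes are lower bounds or wide intervals.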

Other observations

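The Polycomb genes *CBX2* and *PHC1* lay just under the cut-off of 2 in the libraries labelled *SNAI1*-KO, at log2 fold changes of 1.91 and 1.94 (adjusted p = 5.07e-05 and 2.35e-05, edgeR). They were called higher in CS16 against WT at 2.03 and 2.01, and in both clones together without WT-2 at 2.38 and 2.30, where *PHC2* was at -1.42. *EVX2*, the homeobox gene at the posterior end of the HOXD cluster beyond *HOXD13*, had 0 counts in WT, 3, 6 and 13 in CS16 and 2, 8 and 4 in CS19.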
